A study of Rattus norvegicus with 74 samples.

Results

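The genes described here encode the contractile and calcium-handling proteins that mark fast-twitch fibres in skeletal muscle. The list holds 10 symbols, Myh2, Myh4, Mylpf, Myl1, Tnni2, Tnnt3, Tnnc2, Atp2a1, Actn3 and Casq1. They were picked by name, with earlier results of these data already known. 9 of the 10 were matched by symbol among the 30560 genes of the 3 count tables, and Atp2a1, the fast-fibre calcium pump, was not analysed here. The tables identify them as Myh2 (ENSRNOG00000065740), Myh4 (ENSRNOG00000049695), Mylpf (ENSRNOG00000017645), Myl1 (ENSRNOG00000013262), Tnni2 (ENSRNOG00000020276), Tnnt3 (ENSRNOG00000020332), Tnnc2 (ENSRNOG00000015155), Actn3 (ENSRNOG00000019745) and Casq1 (ENSRNOG00000006930). The 9 genes were followed across whole skeletal muscle (SM), mitochondria purified from the same muscle (MT) and the left ventricle of the heart (LV).

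All animals were male wild-type Wistar Kyoto rats of 9 weeks whose drinking water held deuterium oxide at 8% by volume, sedentary and trained rats alike. Trained rats (ExT) ran on a treadmill 5 days a week for 4 weeks from 5 weeks of age, reaching 60 min at 20 m/min, and were sampled 24 h after their final run. Sedentary rats (Sed) were placed on a treadmill that did not move. SM was the red inner portion of the gastrocnemius (15 Sed and 15 ExT rats), MT was the fraction immunocaptured from fresh muscle of the same 30 rats and treated with RNase-A and proteinase-K, and LV was ventricular wall of 7 Sed and 7 ExT of those rats. For this description the rat numbers in the library titles were split into 2 runs, called earlier and later below. The earlier run is 2 to 16 (14 rats, 7 in each arm) and the later 17 to 32 (16 rats, 8 in each arm). The numbers show no gap at the split, and the labels do not say what they stand for. SM and MT libraries were made with a Zymo RiboFree kit from 50 and 10 ng of RNA, and LV libraries with an Illumina TruSeq stranded kit from 100 ng, so kit and input cannot be told apart from tissue where LV or MT is set against SM.

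In a sarcomere, myosin heavy chains pull on actin using ATP, the light chains bound to their necks tune the stroke, and the troponin complex on the thin filament lets the motors engage when calcium binds. Vertebrate muscle builds most of these parts in a fast and a slow version, each from its own gene. The slow versions are largely shared with the heart. Fibres with the fast set contract and relax quickly, and endurance activity is known to move fibres along the series from Myh4 through Myh1 and Myh2 to Myh7. Myh1 was not analysed here.

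The 2 fast myosin genes lie in 1 cluster on chromosome 10, where Myh2 sits between Myh3 and Myh1, and Myh4 between Myh1 and Myh8. Windows of 250 bases directly upstream of the annotated start were taken from RefSeq (build GRCr8, not the build of the counts), in which 9 of the 10 listed symbols had an entry. The windows of Myh2 and Myh4 are shown because the 2 genes moved in opposite directions across muscles. The capitals mark a run of 21 bases that both hold, starting 171 bases before the start of Myh2 and 178 before that of Myh4.
Myh2 (chr10:52355489-52355738, plus strand): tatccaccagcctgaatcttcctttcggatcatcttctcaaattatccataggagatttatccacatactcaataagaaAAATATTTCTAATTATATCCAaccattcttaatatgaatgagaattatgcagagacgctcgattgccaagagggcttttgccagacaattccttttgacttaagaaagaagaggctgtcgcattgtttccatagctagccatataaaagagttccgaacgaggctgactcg
Myh4 (chr10:52421898-52422147, plus strand): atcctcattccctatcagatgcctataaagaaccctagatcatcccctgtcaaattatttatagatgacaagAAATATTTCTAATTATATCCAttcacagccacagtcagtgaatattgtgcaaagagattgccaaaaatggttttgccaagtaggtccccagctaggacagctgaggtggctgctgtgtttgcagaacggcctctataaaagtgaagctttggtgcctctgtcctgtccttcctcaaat
The 21-base run occurred in 4 of 33469 RefSeq windows (0.012%), and the other two belong to 1 uncharacterised locus, LOC102555216. The letters TATAAA, searched on both strands, stood 30 bases before the start of Myh2 and 45, 193 and 227 bases before that of Myh4, and 12.9% of all windows hold them. The Myh4 window also held a MEF2 site at 196 bases, which overlaps the TATAAA at 193, and a CArG box at 118 bases, motifs found in 2.96% and 1.5% of windows.

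The windows of Tnnc2 and Actn3 are shown because Tnnc2 differed most between the earlier and later rats, whereas Actn3 followed Myh4. Capitals in Tnnc2 mark the E-box letters CANNTG, the core that myogenic factors of the MyoD family bind.
Tnnc2 (chr3:173935340-173935589, minus strand): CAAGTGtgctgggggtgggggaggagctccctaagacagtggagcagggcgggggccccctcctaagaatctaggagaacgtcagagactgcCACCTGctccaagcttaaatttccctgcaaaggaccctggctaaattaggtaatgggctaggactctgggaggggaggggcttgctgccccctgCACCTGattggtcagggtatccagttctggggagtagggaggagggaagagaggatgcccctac
Actn3 (chr1:211604402-211604651, minus strand): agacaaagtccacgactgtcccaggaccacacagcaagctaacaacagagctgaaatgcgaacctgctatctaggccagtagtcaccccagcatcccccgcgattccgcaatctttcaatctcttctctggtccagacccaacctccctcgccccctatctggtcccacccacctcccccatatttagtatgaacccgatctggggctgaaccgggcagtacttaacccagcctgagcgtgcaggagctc
The Tnnc2 window held 3 E-boxes, starting 250, 158 and 64 bases before the start, and the Actn3 window held none. An E-box was present in 65.5% of all windows, so its presence sets no gene apart.

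Levels are given as CPM taken over the nuclear-encoded counts alone, here nuclear CPM, because mitochondrially encoded transcripts took a very different part of the counts from library to library. That part was 22.1 to 35.9% in SM, 12.9 to 95.4% in MT and 39.9 to 50.7% in LV. Nuclear-encoded counts came to 13281629 to 26002757 per SM library, 430162 to 1055433 per MT library and 29736117 to 42079400 per LV library. Nuclear CPM is not corrected for gene length, so values are compared between libraries and not between genes. In bulk tissue fewer fibres of a type cannot be told apart from less RNA per fibre. The counts of myosin heavy chain genes also depend on how reads from their near-identical coding stretches were assigned, and the settings for that are not given in the sources used here.

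The 9 genes together held 12.2% ± 2.17 of nuclear-encoded counts in SM of sedentary rats (SD, n = 15; 8.67 to 15.97%) and 10.9% ± 1.29 in SM of trained rats (n = 15; 8.54 to 13.1%). In MT they held 0.0947% (Sed) and 0.0996% (ExT), and in LV 0.00589% and 0.00564%. Every SM library was above every MT library for each of the 9 genes, and every MT library was above every LV library for 8 of the 9. The exception was Casq1, whose lowest MT value (27.7 nuclear CPM) lay under its highest LV value (79.7).

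**Figure D1:**
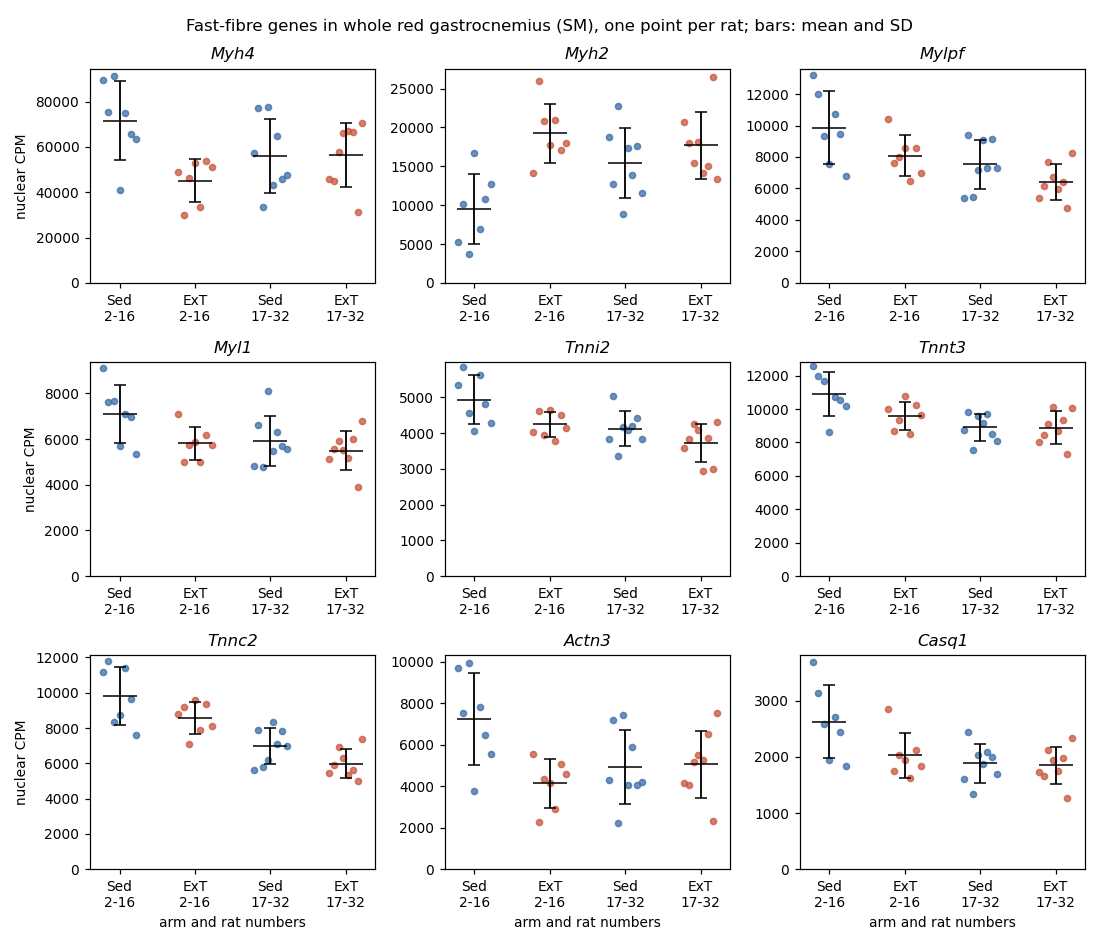
Level of each of the 9 genes in whole muscle, in nuclear CPM on an axis from 0, with 1 point per rat, by arm and run of rat numbers (7, 7, 8 and 8 rats), and bars for the mean and SD. Myh2 sits higher and Myh4 and Actn3 lower in trained than in sedentary rats 2 to 16, and Tnnc2 sits lower in both arms of rats 17 to 32.

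Myh4 encodes the heavy chain of the fastest rodent fibre type, type IIB. In SM it was read at 33472, 64914 and 91447 nuclear CPM in sedentary rats (lowest, median and highest of 15) and at 29941, 50937 and 70735 in trained rats. The trained range lay largely inside the lower part of the sedentary one. Myh2, the heavy chain of the fast but oxidative type IIA fibre, was read at 3768, 12682 and 22759 nuclear CPM in sedentary rats and at 13433, 17943 and 26436 in trained rats. All 15 trained libraries were above the sedentary median of Myh2, yet the ranges overlapped, with 2 trained libraries above every sedentary one. The library with the lowest Myh2 in SM, sedentary rat 8, had the highest Myh4.

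Mylpf, the fast regulatory light chain, ran from 5420 over a median of 9076 to 13194 nuclear CPM in sedentary muscle and from 4762 over 6997 to 10432 in trained muscle. Myl1, the fast essential light chain, ran from 4758 over 6304 to 9126 in sedentary muscle and from 3882 over 5750 to 7100 in trained muscle. For both light chains trained libraries reached lower at both ends of the range. Among the troponins, Tnni2, the inhibitory subunit, lay at 3355, 4277 and 5851 nuclear CPM in sedentary muscle and at 2941, 4028 and 4643 in trained muscle. Tnnt3, the tropomyosin-binding subunit, lay at 7527, 9688 and 12570 and at 7327, 9316 and 10778. Tnnc2, the calcium-binding subunit, lay at 5641, 7891 and 11806 and at 4983, 7102 and 9611. Sedentary and trained troponin values interleaved over most of their range.

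Actn3, the Z-disc actin cross-linker of fast fibres, lay at 2229, 5888 and 9940 nuclear CPM in sedentary muscle and at 2269, 4609 and 7534 in trained muscle. Casq1, the calcium-storing protein of the sarcoplasmic reticulum, lay at 1332, 2042 and 3698 in sedentary and at 1266, 1943 and 2862 in trained muscle. The arms overlapped for 9 of 9 members, and 0% of all genes separated them in either direction.

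Over all 30 SM libraries, training was tested with edgeR's quasi-likelihood test, adjusted by Benjamini-Hochberg over the 13570 genes tested, and a gene was called at an adjusted p under 0.05. None of the 9 members was called, against a background of 0.206% of genes (28), although 8 of the 9 had an unadjusted p under 0.05. DESeq2 called 0 members too. The share of all genes under the unadjusted cut is not given here, and the members' levels are correlated across libraries. Counts of unadjusted p, here and below, are therefore not read as a result about the members. Myh2 differed by 0.50 on the log2 scale towards trained muscle (SE 0.16, adjusted p = 0.175). The other 8 estimates were below 0 and ran from -0.45 in Actn3 (SE 0.20, adjusted p = 0.327) to -0.16 in Tnnt3 (SE 0.09, adjusted p = 0.449). The value of Myh4 was -0.38 (SE 0.16, adjusted p = 0.300) and that of Tnni2, the smallest adjusted p among the 8, was -0.24 (SE 0.09, adjusted p = 0.222). The median of the members was -0.27 and that of all genes tested -0.01. The slow or cardiac counterparts (Myh7, Myl2, Myl3, Tnni1, Tnnt1, Tnnc1, Atp2a2, Actn2 and Casq2) had 9 of 9 estimates above 0, from 0.24 to 0.41, and none was called.

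The training contrast was then read within each run of rat numbers, from 1 fit over the 30 SM libraries. Among rats 2 to 16, Myh2 rose with training by 0.96 on the log2 scale (SE 0.21, adjusted p = 0.0202 by edgeR), which is 1.94-fold, and no other member was called. In this contrast 1.55% of genes were called higher and 0.748% lower. Sedentary Myh2 lay at 3768, 10195 and 16681 nuclear CPM (n = 7) and trained Myh2 at 14126, 17942 and 25996 (n = 7). 6 of the 7 trained libraries were above every sedentary one, and sedentary rat 11 was the only sedentary library inside the trained range. The ranges overlapped for 9 of 9 members, and over all genes 0.651% lay wholly higher and 0.074% wholly lower in trained rats. The call was lost without sedentary rat 4, sedentary rat 8, trained rat 5 or trained rat 10, with estimates over all single omissions of 0.83 to 1.12 and adjusted p of 0.00393 to 0.0577.

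The remaining 8 members had estimates below 0 among rats 2 to 16. All 9 members had an unadjusted p under 0.05, a count given without its share over all genes. Myh4 lay at 40836, 74870 and 91447 nuclear CPM in the sedentary and at 29941, 48945 and 53565 in the trained rats, and 0 of the 7 trained libraries reached the sedentary median. Its estimate was -0.76 (SE 0.22) with an adjusted p of 0.0541 by edgeR. Actn3 lay at 3761, 7504 and 9940 in the sedentary and at 2269, 4351 and 5562 in the trained rats, also with 0 of 7 above the sedentary median (-0.91, SE 0.28, adjusted p = 0.069 by edgeR). DESeq2 called both, Myh4 at an adjusted p of 0.0168 and Actn3 at 0.0222, and over all genes it called 275 lower, against 105 by edgeR. Casq1 (-0.46, adjusted p = 0.110 by edgeR) and Myl1 (-0.38, adjusted p = 0.133) came next, and the troponins lay between -0.31 and -0.27. Without sedentary rat 11, edgeR called 4 members lower (Myh4, Actn3, Casq1 and Tnni2). It called 1 member, Myh4, without sedentary rat 20, 23 or 24 or trained rat 27. Over all genes edgeR made 28 to 1067 calls over the single omissions. Whether members gained calls more often than other genes was not tested.

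Other fibre-type genes and markers of other cells were read in the same rats 2 to 16. Of 8 other fast-fibre genes, such as Ampd1, the muscle AMP deaminase, the estimates lay from -0.65 to -0.21 on the log2 scale with adjusted p from 0.054 to 0.304 by edgeR, and 7 had an unadjusted p under 0.05. The 9 slow counterparts had estimates of 0.59 to 0.92 and no call. Sums of markers of other cells lay on either side, and the sums were not tested. That of 5 of 5 endothelial markers was 333 to 567 nuclear CPM in sedentary and 508 to 746 in trained rats, that of 4 of 4 smooth muscle and pericyte markers 275 to 593 and 475 to 741, and that of 4 of 4 Schwann cell markers 6.73 to 91.1 and 25.8 to 197. The sum of 5 of 5 fibroblast markers was 2336 to 7003 and 2113 to 3448, that of 5 of 5 leukocyte markers 37.6 to 92.6 and 37.1 to 70.3, and that of 3 of 3 adipocyte markers 0.345 to 26.5 and 0.429 to 3.76. That of 3 of 3 satellite cell markers was 5.50 to 10.6 and 9.22 to 15.4, and that of 2 of 4 red blood cell markers 55.5 to 142 and 97.6 to 202. The sum of 5 of 5 skeletal fibre markers was 61234 to 67642 and 59449 to 66409. The part of these markers in the Myh2 result was not tested.

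**Figure D2:**
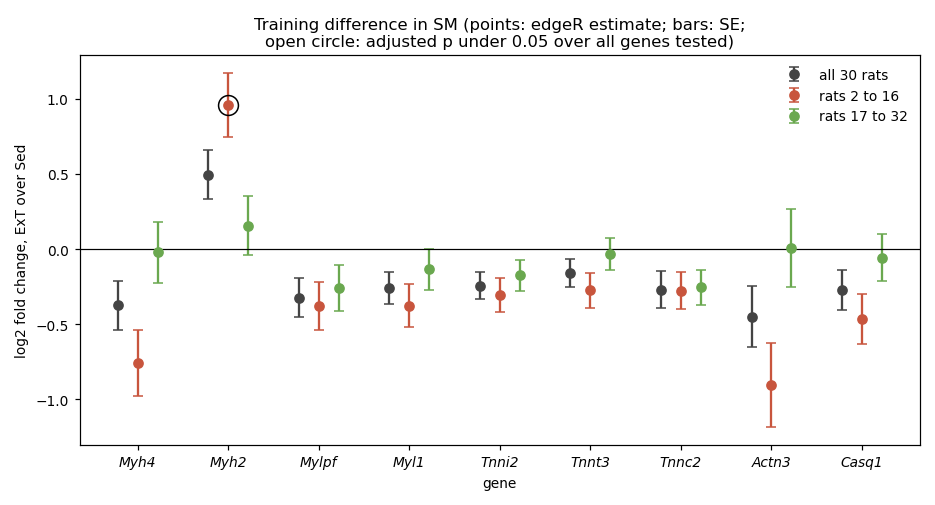
Log2 difference of trained over sedentary muscle for each gene (points, edgeR estimates; bars, SE) over all 30 libraries and in each run of rat numbers, with an open circle for an adjusted p under 0.05. Only the 0.96 of Myh2 in rats 2 to 16 is circled, and the 8 other estimates of that run are below 0.

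Among rats 17 to 32 no member was called, nor was any other gene (0%), and DESeq2 called 0 members and 3 genes in all. Myh2 lay at 8825, 15605 and 22759 nuclear CPM in sedentary (n = 8) and at 13433, 16711 and 26436 in trained rats (n = 8), a log2 difference of 0.16 (SE 0.20). Myh4 lay at 33472, 52309 and 77736 and at 31408, 62018 and 70735, a difference of -0.02 (SE 0.20). Trained and sedentary values thus ran through each other for both heavy chains. The lowest unadjusted p was that of Tnnc2 (-0.25, SE 0.12, adjusted p = 0.625 by edgeR). Whether the training effect itself differed between the runs was tested as an interaction, and 0 members and 0% of genes were called by edgeR (DESeq2 0 members and 46 genes), while 3 members had an unadjusted p under 0.05. These were Myh2 (-0.80, SE 0.29, adjusted p = 0.263), Myh4 (0.74, SE 0.30, adjusted p = 0.294) and Actn3 (0.91, SE 0.38, adjusted p = 0.312).

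Averaged over both arms, 5 of the 9 members fell from the earlier to the later rats, where 6.97% of all genes were called lower and 5.94% higher. Tnnc2 fell most, by 0.55 on the log2 scale (SE 0.08, adjusted p = 4.85e-05 by edgeR). It lay at 7102, 9003 and 11806 nuclear CPM in the earlier (n = 14) and at 4983, 6264 and 8341 in the later rats (n = 16). 11 of the 16 later libraries were below every earlier one, and 0 of 16 were above the earlier median. Mylpf fell by 0.41 (SE 0.11, adjusted p = 0.0117), from 6468, 8560 and 13194 to 4762, 6965 and 9372 nuclear CPM.

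The remaining calls were Tnni2, Tnnt3 and Casq1. Tnni2 fell by 0.27 (SE 0.08, adjusted p = 0.0205 by edgeR), from a median of 4533 to 3970 nuclear CPM. Tnnt3 fell by 0.25 (SE 0.08, adjusted p = 0.0332), from 10206 to 8918, with 0 of the 16 later libraries above the earlier median. Casq1 fell by 0.35 (SE 0.11, adjusted p = 0.0383), from 2086 to 1908. Not called were Myl1 (-0.22, adjusted p = 0.150), Actn3 (-0.18, adjusted p = 0.580), Myh4 (-0.07, adjusted p = 0.819) and Myh2 (0.26, adjusted p = 0.255). The genes that fell were thus the 3 troponin subunits, the regulatory light chain and calsequestrin, and neither heavy chain was called. The count of members was 3 without sedentary rat 4, 7, 8 or 23 or trained rat 2 or 17, and it was also 3 with library totals as the only scaling, the members lost being Casq1 and Tnnt3. It was 4 without sedentary rat 12, 19 or 32 or trained rat 9, 13, 14, 18, 22, 25 or 27, and with no filter on low counts, each with the call of Casq1 or of Tnnt3 lost.

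Of 10 sarcomere genes used by all fibres, 3 fell and 7 were not called, with a median of -0.09 against 0.01 over all genes tested. The 3 were Ckm, which fell by 0.27 (adjusted p = 0.0203 by edgeR), Acta1, which fell by 0.24 (adjusted p = 0.0306), and Des, which fell by 0.21 (adjusted p = 0.0263). Of 8 other fast-fibre genes 1 was called, Ampd1, which fell by 0.31 (adjusted p = 0.0196), and of 9 slow counterparts none. The sum of 5 of 5 skeletal fibre markers was 59449 to 67642 nuclear CPM in the earlier and 49099 to 69769 in the later rats, and that of 5 of 5 fibroblast markers 2113 to 7003 and 1770 to 15260. Of the single marker genes, Hba-a2, a globin gene of red blood cells, fell by 0.77 (adjusted p = 0.00661 by edgeR) and Tek, a receptor of endothelial cells, rose by 0.19 (adjusted p = 0.0477). The sum of 5 of 5 endothelial markers, Tek among them, was 333 to 746 nuclear CPM in the earlier and 342 to 793 in the later rats. The part of these markers in the differences was not tested.

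Within single arms Tnnc2 was the member called both times. Among sedentary rats it lay at 7606, 9646 and 11806 nuclear CPM in the earlier and at 5641, 7058 and 8341 in the later run and fell by 0.56 (SE 0.12, adjusted p = 0.0142 by edgeR), where 0.905% of genes were called lower and 0.713% higher. Among trained rats it lay at 7102, 8816 and 9611 and at 4983, 5763 and 7358 and fell by 0.54 (SE 0.12, adjusted p = 0.00379), where 6.01% of genes were called lower and 4.09% higher. In trained rats 7 of the 8 later libraries lay below every earlier one. Among the marker genes of other cells, 3 were called in trained rats: Hba-a2 fell by 1.13 (adjusted p = 0.00656 by edgeR), the endothelial gene Emcn fell by 0.35 (adjusted p = 0.0434) and the satellite cell gene Pax7 fell by 0.43 (adjusted p = 0.0471). The sum of 5 of 5 endothelial markers was 508 to 746 nuclear CPM in the earlier and 487 to 793 in the later trained rats. That of 3 of 3 satellite cell markers was 9.22 to 15.4 and 8.04 to 12.3, and that of 2 of 4 red blood cell markers 97.6 to 202 and 41.7 to 127. The part of these markers in the Tnnc2 result was not tested. No other member was called by edgeR in either arm. In sedentary rats the other 8 had unadjusted p under 0.05 as well, again without the share over all genes. DESeq2 called 5 members lower there (Tnnc2, Tnnt3, Casq1, Tnni2 and Mylpf) and Myh2 higher. Over all genes in that arm DESeq2 called 281 lower and 253 higher, against 127 and 100 by edgeR. Single omissions gave 67 to 377 calls over all genes by edgeR. Leaving out sedentary rat 11 gave 4 members called lower and 1 higher in that arm by edgeR, without rat 20 or 30 it gave 2 and 3 lower, and without rat 24 it gave 1 higher.

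The balance between heavy chains was described as each gene's share of the summed counts of Myh4, Myh2 and Myh7, the slow heavy chain, without a length correction. Myh1 is not in the sum, so these are not shares of all adult heavy chains or of fibre types. Myh4 held the largest share in 30 of 30 SM libraries although the labels name the red portion of the muscle. In sedentary rats its share was 71.1% ± 15.1 (SD, n = 15; lowest 42.1%), with 14.9% ± 7.05 for Myh2 and 13.9% ± 8.71 for Myh7. In trained rats the shares were 59.8% ± 12.2 (lowest 39.5%), 22.1% ± 6.11 and 18.2% ± 7.63. Among rats 2 to 16 the mean share of Myh4 was 77.8% in sedentary and 54.5% in trained rats, and that of Myh2 10.7% and 23.6%. Among rats 17 to 32 the same shares were 65.3% and 64.4%, and 18.6% and 20.7%. The shares themselves were not tested, and the interaction test on single genes above made no call between the runs.

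**Figure D3:**
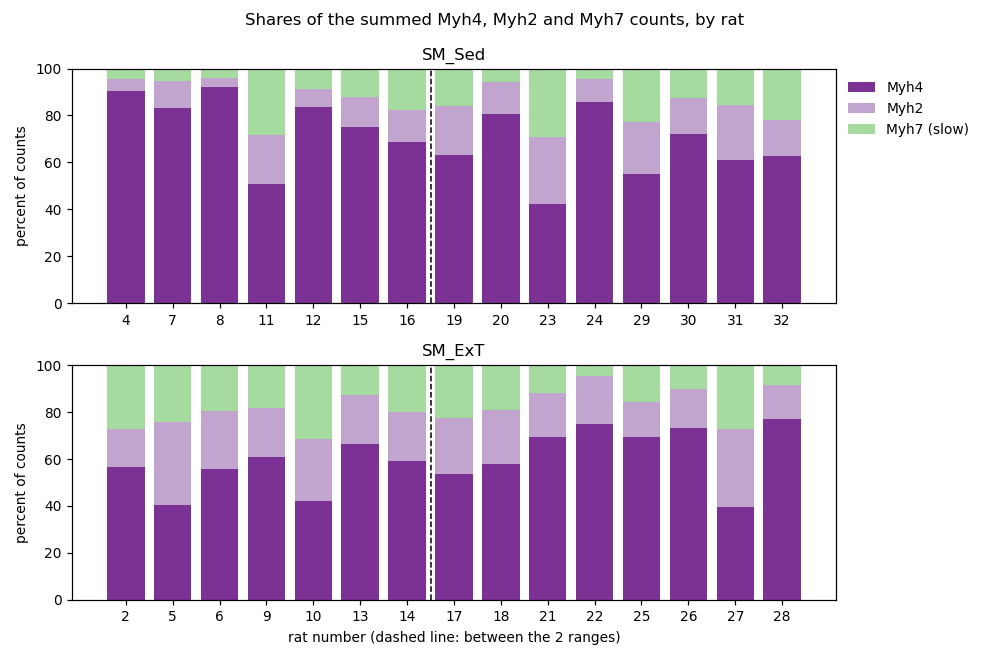
Share of Myh4, Myh2 and Myh7 in their summed counts (percent, stacked to 100), with 1 bar per SM library ordered by rat number, sedentary above and trained below, and a dashed line between the runs. Myh4 takes the largest share in all 30 bars, from 39.5% upwards.

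Each member was also set against its slow counterpart within the library, as a mean log2 ratio of counts with 0.5 added. The ratio was smaller in trained than in sedentary SM for 8 of the 9 pairs and larger for Myh2 to Myh7. That of Myh4 to Myh7 was 2.63 ± 1.34 (SD, n = 15) in sedentary and 1.84 ± 1.03 in trained rats. The light chains gave 4.15 and 3.48 for Mylpf to Myl2, and 2.69 and 2.01 for Myl1 to Myl3. The troponins gave 2.73 and 2.00 for Tnni2 to Tnni1, 2.86 and 2.29 for Tnnt3 to Tnnt1, and 4.74 and 4.16 for Tnnc2 to Tnnc1. Actn3 to Actn2 gave 1.00 and 0.30, Casq1 to Casq2 4.82 and 4.24, and Myh2 to Myh7 0.22 and 0.39. With both runs together, each of the 9 differences between arms was smaller than the SD between sedentary libraries (0.56 to 1.34). Within the earlier run each difference exceeded the sedentary SD, except that of Myh2 to Myh7. There Myh4 to Myh7 gave 3.09 ± 1.36 in sedentary and 1.35 in trained rats, and Myh2 to Myh7 0.06 ± 0.51 and 0.13. Within the later run Myh4 to Myh7 gave 2.23 ± 1.26 and 2.27, and each of the 9 differences was smaller than the sedentary SD. The ratios were not tested.

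Across the 30 SM libraries the members formed 2 sets, described here by Spearman rho on nuclear CPM with no test, since the libraries share the muscle, the protocol and the scaling. All 28 pairs without Myh2 were positive (0.21 to 0.95, median 0.75), and all 8 pairs with Myh2 were negative (-0.85 to -0.43). The closest pair was Myh4 with Actn3 (rho 0.95). The loosest of the positive pairs was Myh4 with Tnnc2 (0.21), while Tnnc2 went with Mylpf at 0.86 and Myl1 with Casq1 at 0.92. Myh2 with Myh4 gave rho -0.81, Pearson's r -0.81 and r -0.80 without the 2 libraries farthest from the median of Myh2. Centring each library on its arm and run left that pair at -0.79, so the sign was the same once arm and run were removed. Myh2 went with Myh7 at 0.64, and Myh7 was negative against each of the other 8 members (-0.87 to -0.17).

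The genes most like the members were sought among 9447 genes with a mean of at least 5 nuclear CPM in SM, by rho with the mean centred log2 level of the 9 members over 30 libraries. The 5 highest were Ampd1 (0.93), Ldha (0.92), Pgam2 (0.89), Pkm (0.87) and Myoz1 (0.87). Ldha, Pgam2 and Pkm encode enzymes of glycolysis, and Myoz1 a Z-disc protein of fast fibres. The 5 lowest were Npr2 (-0.88), Herc1 (-0.86), Nt5c2 (-0.86), Rhou (-0.85) and Atp2a2 (-0.85), the last being the calcium pump of slow fibres and heart. Nuclear CPM is a share of a fixed total, of which the members took 8.54 to 15.97% in SM, and this bears on each correlation.

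**Figure D4:**
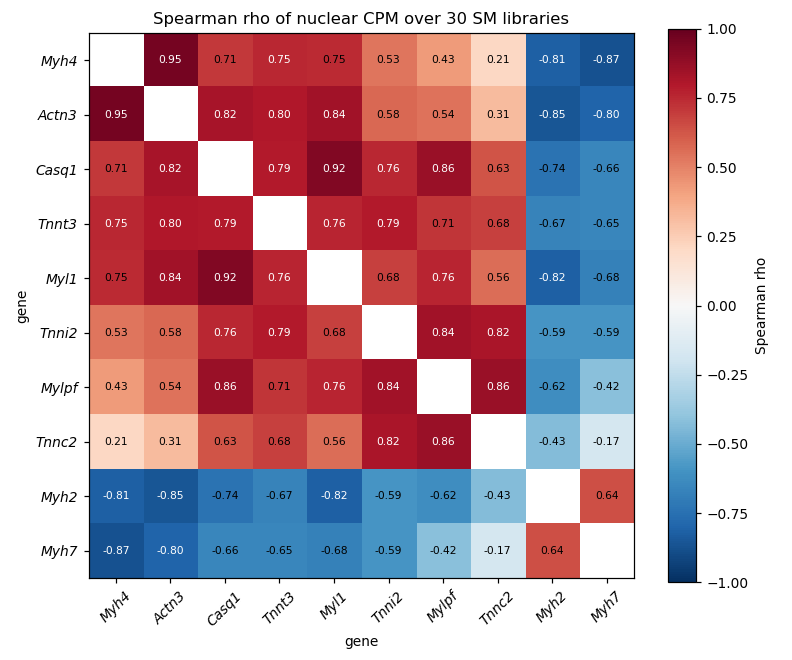
Spearman rho of nuclear CPM over 30 SM libraries for each pair of the 9 members and Myh7, on a colour scale. Myh2 and Myh7 are negative against the other 8 genes and positive with each other (0.64).

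In purified mitochondria the 9 genes were called lower than in SM in both arms by edgeR, where 33.1% (Sed) and 35% (ExT) of all genes were called lower. On edgeR's TMM scale the log2 differences ran from -10.04 in Mylpf to -7.62 in Casq1 among sedentary rats and from -9.52 to -7.40 among trained rats. With the median of all genes at 1.81 and 1.31, the members' medians were -8.99 and -8.88. Groups did not overlap for 9 of 9 members in either arm, against 7.89% and 8.54% of genes that lay wholly lower. The size depended on the scaling: with library totals alone the differences were -8.90 in Mylpf and -6.05 in Casq1 among sedentary rats, and between the medians of nuclear CPM they were -8.47 and -5.27. The rat as a block left 9 of 9 called. As a share of the same rat's SM level, the sedentary MT medians were 0.348% for Mylpf, 0.595% for Myh4, 1.34% for Myh2, 1.61% for Actn3 and 2.10% for Casq1.

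Raw counts behind the MT values were small, 105 to 575 per library for Myh4, 43 to 211 for Myh2 and 10 to 106 for Myl1. Myh4 lay at 191, 316 and 853 nuclear CPM over the 30 MT libraries, Myh2 at 91.3, 143 and 290, and Tnnt3 at 50.5, 105 and 344. Mylpf, Myl1, Tnni2, Tnnc2 and Casq1 had medians of 25.4, 35.1, 34.5, 46.0 and 43.4, and Actn3 one of 84.1. As a gauge of signal not tied to muscle, 145 vomeronasal receptor genes, which belong to a sensory organ of the nose, had a median mean of 17.3 nuclear CPM in MT and a highest mean of 114. 3 members (Myh4, Myh2 and Tnnt3) had MT means above that highest value and 6 at or under it. Nuclear CPM is not corrected for gene length, so this comparison does not decide which members stand above background. Myh3 and Myh8, myosins of developing muscle, stood at means of 134 and 108 in MT and 21.6 and 4.99 in SM.

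The heavy chain shares in MT were 51.5% ± 5.44 for Myh4, 21.5% ± 3.13 for Myh2 and 26.99% ± 3.80 for Myh7 (SD, n = 30), a narrower spread than in SM. The mean log2 ratios of fast to slow gene over the 30 MT libraries ran from -0.48 for Mylpf to Myl2 to 1.24 for Tnnc2 to Tnnc1. Those of Tnnt3 to Tnnt1 (1.15) and Myh4 to Myh7 (0.94) came next, and the other 5 lay between -0.33 and 0.11. 3 MT libraries had over 90% of counts on the mitochondrial genome (sedentary rat 15 and trained rats 2 and 27). They held Mylpf at 123 to 188 nuclear CPM against 14.5 to 53.7 in the other 27 and Tnnc2 at 146 to 165 against 29.1 to 89.8. Acta1, the actin of skeletal muscle, was at 603 to 944 there against 37.2 to 471, whereas the slow light chain Myl2 was at 46.3 to 50.4 against 23.5 to 63.3. Without these 3 libraries 9 of 9 members were still called lower than in SM in each arm. The training contrast within MT called 0 of 9 members (background 0%; DESeq2 0; 0 with an unadjusted p under 0.05), with log2 differences from -0.10 to 0.15. The interaction of training with MT against SM called 0 of 9 as well (background 0.0181%; DESeq2 0; 1 with an unadjusted p under 0.05).

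**Figure D5:**
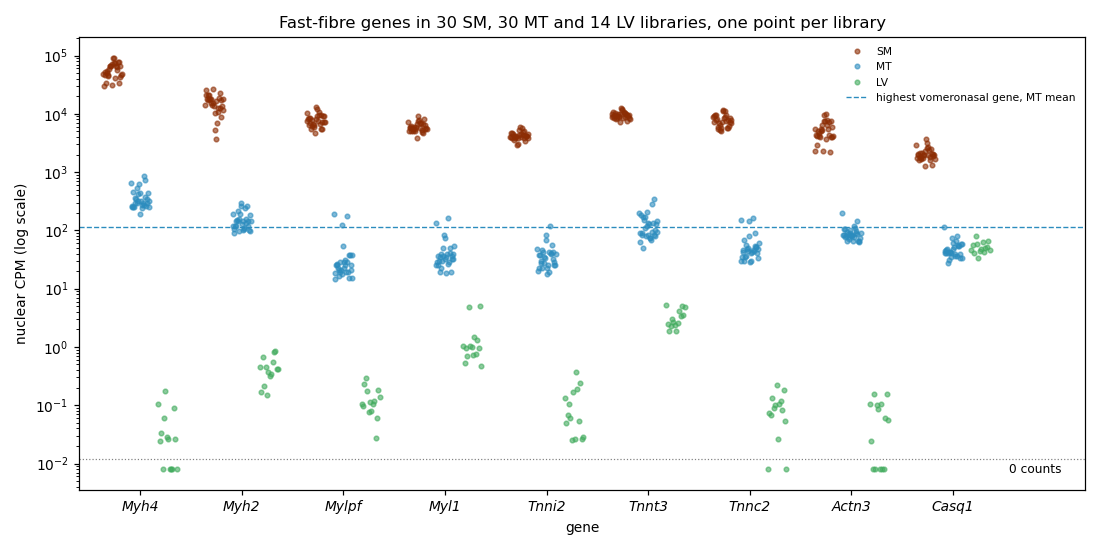
Nuclear CPM of the 9 genes on a log axis, with 1 point per library for 30 SM, 30 MT and 14 LV libraries, libraries without a count drawn at the foot, and a dashed line at the highest mean of a vomeronasal receptor gene in MT (114). SM points lie above all MT points for each gene, and LV points lie lowest for each gene except Casq1, where MT and LV overlap.

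In the left ventricle 9 of 9 members were again called lower than in SM of the same 7 rats in each arm, where 38.6% (Sed) and 39.5% (ExT) of genes were called lower. No LV library reached any SM library, against 13.5% and 15% of all genes that lay wholly lower. Myh4, Mylpf, Tnni2, Tnnc2 and Actn3 did not pass the filter on low counts within LV and entered through their SM counts alone. For them a lower level in LV was the only outcome possible, so their calls and their lack of overlap add no support. The ventricle carried its own markers, with Myh6, the main heavy chain of the adult rodent heart, at means of 30493 and 32765 nuclear CPM (9.11 and 12.998 in SM) and cardiac troponin I, Tnni3, at 3545 and 3534 (0.355 and 0.420 in SM). Casq1 was the best-covered member in LV, at 33.3, 49.4 and 79.7 nuclear CPM over 14 libraries. With counts pooled over 7 rats, its SM level was 36.9 times the LV level in sedentary rats (exact Poisson 95% interval 36.3 to 37.6). In trained rats it was 34.9 times (34.3 to 35.5). Both intervals cover counting error only and leave out the spread between rats. On edgeR's TMM scale the difference was 54.0-fold in sedentary and 49.2-fold in trained rats. Tnnt3 followed at 1.86, 2.84 and 5.18 and Myl1 at 0.480, 0.981 and 5.06.

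The other members were close to the limit of detection in LV. Summed over 7 libraries, Myh4 had 5 counts in sedentary and 16 in trained rats, or 0.0191 nuclear CPM (exact Poisson 95% interval 0.00621 to 0.0446) and 0.0627 (0.0359 to 0.102). These intervals cover counting error only, and a count of 0 in 1 LV library allows 0.0713 to 0.101 nuclear CPM (3 counts). Myh4 was at 0 in 4 sedentary and 1 trained LV libraries, Actn3 in 3 and 2, and Tnnc2 in 1 and 1. Actn3 had 14 and 18 counts in all, Tnnc2 21 and 25, Mylpf 27 and 39, Tnni2 35 and 22, and Myh2 137 and 86. Myh2 thus reached at most 0.838 nuclear CPM in any heart against at least 3768 in any SM library.

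Against its counterpart, Tnnt3 was the only member with more counts than the slow gene in LV, with a mean log2 ratio to Tnnt1 of 2.89. Tnnt1 itself had only 4 to 30 counts per LV library. The cardiomyocyte markers Tnnt2 and Tnni3 were not among the counterparts, so the ratio sets no member against the heart's own troponins. Casq1 to Casq2 was at -4.53. Of the 9 counterparts, 5 were called higher and 4 lower in LV than in SM in each arm. In the training contrast within LV, 4 of the 9 members passed the filter on low counts (Casq1, Tnnt3, Myl1 and Myh2), and the remaining 5 were not tested. edgeR called 0 of the 4 (background 0%; DESeq2 0; 0 with an unadjusted p under 0.05), with log2 differences from -0.56 in Myh2 to 0.01 in Casq1. The training difference of LV against SM gave 0 of 9 members called (background 0%, 1 with an unadjusted p under 0.05, DESeq2 0). The 5 members not tested within LV entered this test through their SM counts. Their LV counts were too few for it to decide, so no like response in heart and muscle can be read from it.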

How the data were processed

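Ribosomal-RNA-depleted RNA-seq libraries of whole muscle, immunocaptured mitochondria and left ventricle were deposited by the authors as 3 tables of raw counts per gene, 1 column per library, with 74 libraries and 30560 genes in all. Per the submitters' processing notes, FastQC 0.74, cutadapt 4.6, STAR 2.7.11a, HTSeq and the genome build mRatBN7.2 were used; the strand and multi-mapping settings are not given in the sources used here, so genes that overlap or share near-identical stretches are uncertain. Libraries were assigned to tissue, arm and rat from the titles.

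Counts as deposited were analysed in R 4.3.3 with edgeR 4.0.16 (TMM, filterByExpr, robust quasi-likelihood test, Benjamini-Hochberg adjustment over all genes tested, threshold 0.05); DESeq2 1.42.0 was an alternative. Each tissue was fitted alone for training. Tissue contrasts used the libraries of 1 arm, LV with the SM libraries of the same rats. Contrasts by rat number came from 1 fit over 30 SM libraries with arm by run as 4 group means. Log2 fold changes are edgeR's, with SE from the quasi-likelihood fit. Nuclear CPM divides a count by the library's 30523 nuclear-encoded genes' total, leaving out 37 genes of the mitochondrial genome. Descriptions, figures and intervals were made with numpy 2.4.6, pandas 2.3.3, scipy 1.17.1 and matplotlib 3.10.9. The fitting code was tested on simulated data. Non-overlap was counted among genes with at least 10 counts in as many libraries as the smaller group holds.

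Depth sets what can be seen. 3 counts correspond to 0.115 to 0.226 nuclear CPM in SM, 2.84 to 6.97 in MT and 0.0713 to 0.101 in LV. No 2 libraries of a group agreed within sampling noise (smallest chi-square per degree of freedom 1.23). Libraries of 1 rat share an animal, so the rat as a block was an alternative for tissue contrasts; deviations of same-rat libraries correlated at a median of 0.0175 for MT with SM (30 rats) and 0.0606 for LV with SM (14 rats). Other alternatives were RLE factors, library totals, leaving out mitochondrial-genome genes, no filter, thinning, a term for the run of rat numbers, and leaving out libraries.

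Members were found by symbol; Atp2a1 was not analysed here, nor were Myh1, Pvalb, Hba-a1 and Hbb, which are on the lists of related genes and markers; 1 further listed gene is not reported here. The text names all members, those of the listed related genes that passed the threshold (at most 6 per comparison), the counterparts, and the 5 most and 5 least alike genes; vomeronasal receptor genes, markers and single libraries are named beside the results they touch. The members and lists were chosen with earlier results of these data known.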

Additional observations from a re-analysis of the deposited data

Results flagged for a closer look

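5 values stood apart from the rest of their group by Dixon's test, out of 54 groups of 4 to 10 libraries tested, and chance gives about 1 in 20. Myl1 was at 5.06 nuclear CPM (192 counts) in the left ventricle of sedentary rat 31, where the next library was at 1.46, and at 4.82 (162 counts) in that of trained rat 26, where the next was at 1.06. The atrial light chain genes Myl7 and Myl4 had 40107 and 14386 counts in the ventricle of trained rat 26, and 86 and 114 in that of sedentary rat 31. In that of sedentary rat 19 they had 13554 and 4423 counts, with 56 counts of Myl1. A link between these genes and the Myl1 values was not tested. Tnnt3 was at 5.18 nuclear CPM (196 counts) in the ventricle of trained rat 14, with the next at 2.97. Myh4 was at 0.0898 nuclear CPM in the ventricle of sedentary rat 30, which is 3 counts, with the next at 0.0265. In muscle, Casq1 was at 2862 nuclear CPM in trained rat 2, the highest of its 7 trained rats of the earlier run, with the next at 2130.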

How the results depend on the processing

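Alternatives were run for 15 comparisons. Among counts of members called and 4 centred correlations, 596 alternative values stayed close (counts within 1.5 times) and 24 did not; of single-gene values 2430 kept direction and side of the threshold, 29 lost a call, 23 gained one and 29 changed sign, the sign changes being near-0 estimates without a call. DESeq2 gave 2 members lower among trained rats 2 to 16, and 1 higher and 5 lower among sedentary later against earlier rats. Library totals as the only scaling gave 3 lower for later against earlier rats, and turned Myh4 to 0.0132 and Tnnt3 to 0.00517 for training in rats 17 to 32. Leaving out each SM library in turn gave 0 to 1 members higher and 0 to 4 lower in rats 2 to 16, 3 to 5 lower for later against earlier rats, and 0 to 1 higher and 1 to 4 lower for sedentary later against earlier rats. In rats 17 to 32 the same omissions moved Actn3 from -0.11 to 0.12, Casq1 from -0.12 to 0.0168, Myh4 from -0.11 to 0.0784 and Tnnt3 from -0.0729 to 0.0156, and in the interaction Tnnc2 from -0.0356 to 0.0786. The rat as a replicate block left 9 of 9 members lower in MT and LV against SM (Myh4 in sedentary MT -9.63, without the block -9.59) and changed no other member's call.

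Over all genes, the 28 training calls in SM became 136 by DESeq2, 45 with a term for the run of rat numbers and 12 to 100 without single libraries, and the 322 in rats 2 to 16 became 775 by DESeq2, 183 with library totals, 164 without a filter and 28 to 1067 without single libraries. The 227 calls between runs in sedentary rats became 534, 148 and 121 in that order, and 67 to 377 without single libraries. The 5 calls of training in MT against SM became 32 by DESeq2, 3 with the block, 1 after thinning and 0 with library totals. Library totals moved the share of higher calls in MT against SM from 65.1 to 86.2% (Sed) and from 62.9 to 86.5% (ExT), in LV against SM (Sed) from 50.9 to 62.7%, and between runs from 46.0 to 58.3% (both arms), 44.1 to 32.4% (Sed) and 40.5 to 61.7% (ExT); the cause was not tested. The median log2 difference of all genes in MT against SM moved with it from 1.81 to 3.43 (Sed) and from 1.31 to 2.92 (ExT), all 9 members staying lower, and thinning cut the calls over all genes from 21648 to 3875 (Sed) and from 20092 to 2019 (ExT). Correction of heavy chain shares by protein length was not run. Depth limits MT most, with 430162 to 1055433 nuclear-encoded counts per library; LV is the deepest tissue, and there the low level of 5 of 9 members kept them out of the training test.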
